A study of Arabidopsis thaliana with 12 samples.

Results

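Nuclear gene expression in otp90 leaves was compared with that in wild-type (WT) leaves in the libraries named Mito, over all genes counted and with attention to pathways other than copper homeostasis and alternative respiration. The comparison took 6 of the 12 libraries of the series by their titles, 3 from otp90 and 3 from WT, and the other 6 libraries, named Total, hold the same genotypes. The otp90 plants were Arabidopsis thaliana with a knock-out insertion in OTP90 (AT1G25360, chromosome 1, 8894380 to 8897124), which encodes an organelle RNA editing protein of the pentatricopeptide repeat (PPR) family, and the WT plants were accession Col-0. Plants of both genotypes were untreated, grew in long days and were sampled as vegetative leaves at 35 days, and total RNA was depleted of ribosomal RNA and sequenced with strand information. The mutant was 1 insertion line, so that loss of OTP90 and any other change carried by that line cannot be told apart. How the Mito extract was made is not given in the sources used here, so differences between leaves and differences between extracts cannot be told apart. The 3 libraries of a group are biological replicates by the series' design text, which does not say what was pooled in each. The p-values of fits without the replicate number measure the spread between these libraries. Those of fits with it measure only the spread left after differences between replicate numbers are removed.

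Plant mitochondria and plastids keep small genomes of their own, and nearly all proteins that transcribe, process, translate and fold their products are encoded in the nucleus and imported. When mitochondria are disturbed, retrograde signals are known to change nuclear transcription, in part through membrane-anchored NAC factors such as NAC013 and NAC017 that recognise a mitochondrial dysfunction motif in promoters, among them that of the alternative oxidase AOX1A. Nuclear genes for chaperones, for ribosome assembly in the nucleolus, for responses to low sugar and for the hormones salicylic acid, jasmonate and abscisic acid are other programmes that leaves adjust when organelle function changes.

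The libraries held 24660745 to 30706658 counts in otp90 and 27611023 to 32418348 in WT. OTP90 itself had 17, 6 and 9 counts in otp90 libraries, against 16, 17 and 20 in WT libraries, and with a log2 fold change of -0.55 and an adjusted p of 0.847 (edgeR, no filter on low counts) it does not check the genotype labels at this depth. Mitochondrial genes took 4.42%, 5.16% and 5.08% of counts in otp90, against 3.22%, 2.89% and 4.59% in WT (p = 0.2 by a two-sided exact permutation test over libraries, which cannot go below 0.1). In the Total libraries they took 0.959% to 1.19%. The leaf label fitted the summed mesophyll markers, at 16220 to 16450 CPM (counts scaled by TMM-adjusted library size) in otp90 and 15180 to 15720 CPM in WT, and 3 of the 4 seed markers were at 0. Fewer cells of a type and less RNA per cell cannot be told apart in such leaf extracts.

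With the replicate number in the model, 221 of 16570 tested genes differed between otp90 and WT (1.33%), 143 of them higher (0.863%) and 78 lower (0.471%) in otp90, whereas 10 genes (0.0604%) passed without it (edgeR quasi-likelihood test, Benjamini-Hochberg adjusted p under 0.05). At an unadjusted p under 0.05 there were 2096 genes with the replicate number and 1153 without. Of 55 tested transcripts of the mitochondrial genome 32 rose with the replicate number in the model and 1 passed without it, none fell, and the median log2 fold change was 0.59. Nuclear genes that are near-identical to organelle DNA showed 42 of 94 higher with the replicate number and 0 without it, none lower and a median of 0.59, and 124 of the 129 such genes lie in the stretch of mitochondrial DNA in chromosome 2, between 3239693 and 3503608. Because reads with several equally good positions were counted at each, counts of these copies (ABCI5 at AT2G07771, log2 0.92, and ABCI4 at AT2G07681, log2 0.84, among them) cannot be told apart from counts of mitochondrial RNA, and they are left out of what follows. Plastid genes showed 8 higher and 7 lower of 126.

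**Figure D1:**
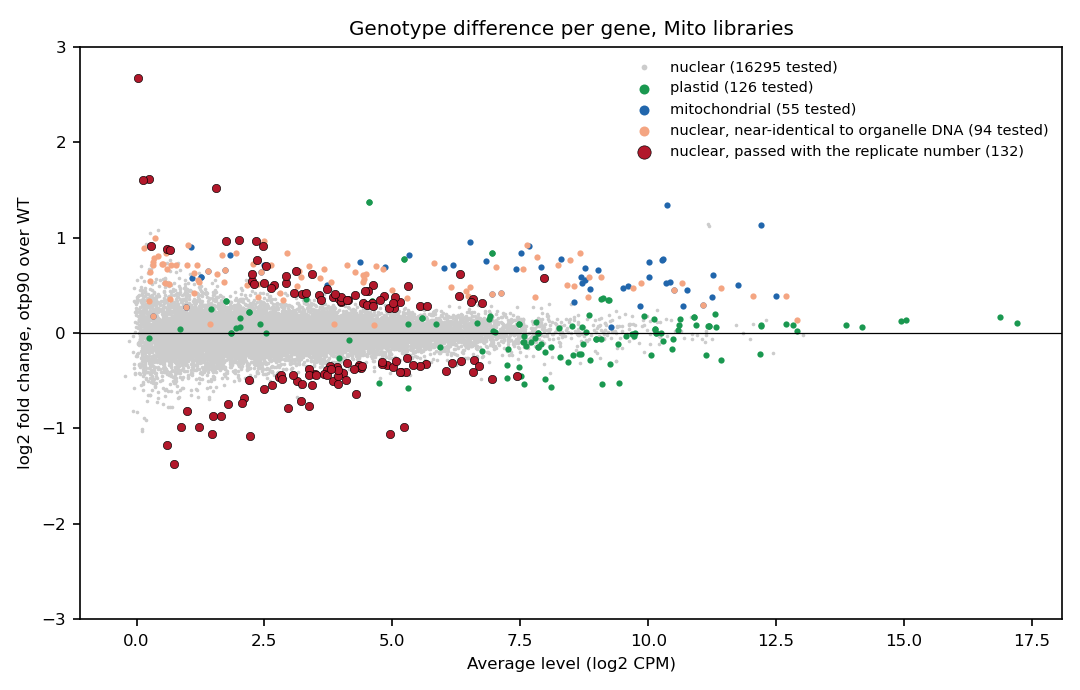
Log2 fold change of each tested gene in the fit with the replicate number, otp90 over WT in Mito libraries (vertical axis), against its average log2 CPM (horizontal axis), with each point a gene, organelle genes and organelle-like nuclear genes coloured by class and nuclear genes that passed with the replicate number in red. The 132 red points lie on both sides of 0, and all 55 mitochondrial genes and all 94 organelle-like nuclear genes lie above it.

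Outside those copies 132 of 16295 nuclear genes passed (0.81%), 61 higher (0.374%) and 71 lower (0.436%) in otp90, and 9 of them also passed without the replicate number (0.0552%). Copper homeostasis genes made up 2 of the higher and 3 of the lower calls, and the superoxide dismutases CSD1 (log2 -0.99), CSD2 (-1.06) and FSD1 (0.58) and the copper chaperone CCS (-0.71) were 4 of the 9, while AOX1A was the 1 call among 6 genes of alternative respiration. All 132 moved one way in all 3 same-numbered pairs of libraries, which the fit that chose them favours, so this is not separate support. The libraries of otp90 and WT did not overlap for 54 of the 61 higher genes and 48 of the 71 lower genes, against 13.2% of all tested genes. The called genes were chosen on these same libraries, which favours a lack of overlap, so this contrast is not separate support either. The differences were small: the median log2 fold change was 0.42 among higher and -0.44 among lower genes, and 37 of the 61 and 47 of the 71 were under 0.5 in size. The balance of directions depended on the scaling. With library sizes alone in place of TMM factors, which shifted the median of all genes by -0.087, 44 of 137 calls were higher (32.1%, against 64.7%), and outside the copies 13 genes were higher and 87 lower in place of 61 and 71. Of all calls 76 of 95 were higher (80.0%) in DESeq2, and 92 of 189 (48.7%) when only nuclear genes outside the copies were fitted. The calls also leaned on the replicate 2 libraries, without which 13 of the 61 and 21 of the 71 genes still passed, against 41 and 53 without replicate 1 and 44 and 52 without replicate 3. Of the genes named below, SLP2, MTPNP, GMI1, YSL2, DR4, AT1G22550, AT2G05540, MBP1, PORA, CORI3, TPS04, PR5, CAX3, CSD1, CSD2, CCS, FSD1, AOX1A, AT4G06115, AT2G34655, AT1G07017 and AT3G06355 passed without the replicate 2 libraries. AT5G52940, AT2G18193, LAC3, AT2G41730 and AT1G77960 were too low to be refitted, and the other called genes did not pass. AT5G52940, AT2G18193, LAC3 and AT2G41730 cleared the filter of 1 CPM in 3 libraries through their otp90 libraries alone. They were thus tested only because they are high in otp90, and their calls carry that selection.

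Nuclear genes for organelle proteins were among the higher calls. Of 25 such genes for organelle protein quality control and gene expression, a list put together after the values were seen, all 25 had a positive log2 fold change, 12 rose and none fell, with a median of 0.28 (0.19 with library sizes alone), beside a median of -0.01 over nuclear genes outside copies. The median was 0.28, 0.35 and 0.19 in the pairs of replicate 1, 2 and 3. None of the 12 passed without the replicate number, and without the replicate 2 libraries SLP2 and MTPNP were the 2 that still passed. The same 2 genes were the only ones of the 12 to pass with library sizes alone, and 3 of the 12 passed in DESeq2. The 2 largest changes belonged to inner-membrane and RNA-decay factors of mitochondria.

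SLP2 (AT5G54100, chromosome 5, 21953700 to 21956580), a stomatin-like protein of the inner mitochondrial membrane, had 6.59, 6.46 and 6.26 CPM in otp90 libraries, against 3.44, 3.62 and 4.34 CPM in WT libraries. Every otp90 library lay above every WT library, and the log2 fold change was 0.77 ± 0.12 (SE, n = 3 each; adjusted p = 0.00397 with the replicate number and 0.0551 without). MTPNP (AT5G14580, chromosome 5, 4697207 to 4703091), the mitochondrial polynucleotide phosphorylase that trims and degrades organelle RNA, had 6.94, 6.96 and 7.52 CPM in otp90 and 4.28, 3.80 and 5.11 CPM in WT. The groups again did not overlap (log2 0.71 ± 0.11, SE; edgeR adjusted p = 0.00397). LETM1 (AT3G59820, chromosome 3, 22097979 to 22102224), an inner-membrane protein known for potassium exchange and mitochondrial translation, had 5.97, 5.96 and 5.34 CPM in otp90 and 3.81, 3.68 and 3.73 CPM in WT, at log2 0.62 ± 0.11 (SE; adjusted p = 0.0107, and 0.0991 without the replicate 2 libraries). The other mitochondrial members that rose were MTEFTU, the elongation factor Tu of mitochondrial translation (log2 0.28), the RNA helicase PMH1 (log2 0.42) and PPR596 (log2 0.41).

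Plastid members of the list rose as well. CP29 (AT3G53460), a plastid RNA-binding protein, had 106, 106 and 99.5 CPM in otp90 and 79.6, 82.0 and 86.5 CPM in WT (log2 0.33, adjusted p = 0.0236 in edgeR with the replicate number). FLN1, a fructokinase-like protein bound to the plastid RNA polymerase, was at log2 0.42, and the pigment-defective gene PDE340 at 0.39. The chaperonins CPN60B2 and CPN10-1 of the plastid stood at 0.28 and 0.29, and GYRA, a gyrase of organelle DNA, at 0.31. For GYRA the groups overlapped, with 24.6, 28.1 and 28.2 CPM in otp90 and 20.2, 20.2 and 24.8 CPM in WT.

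**Figure D2:**
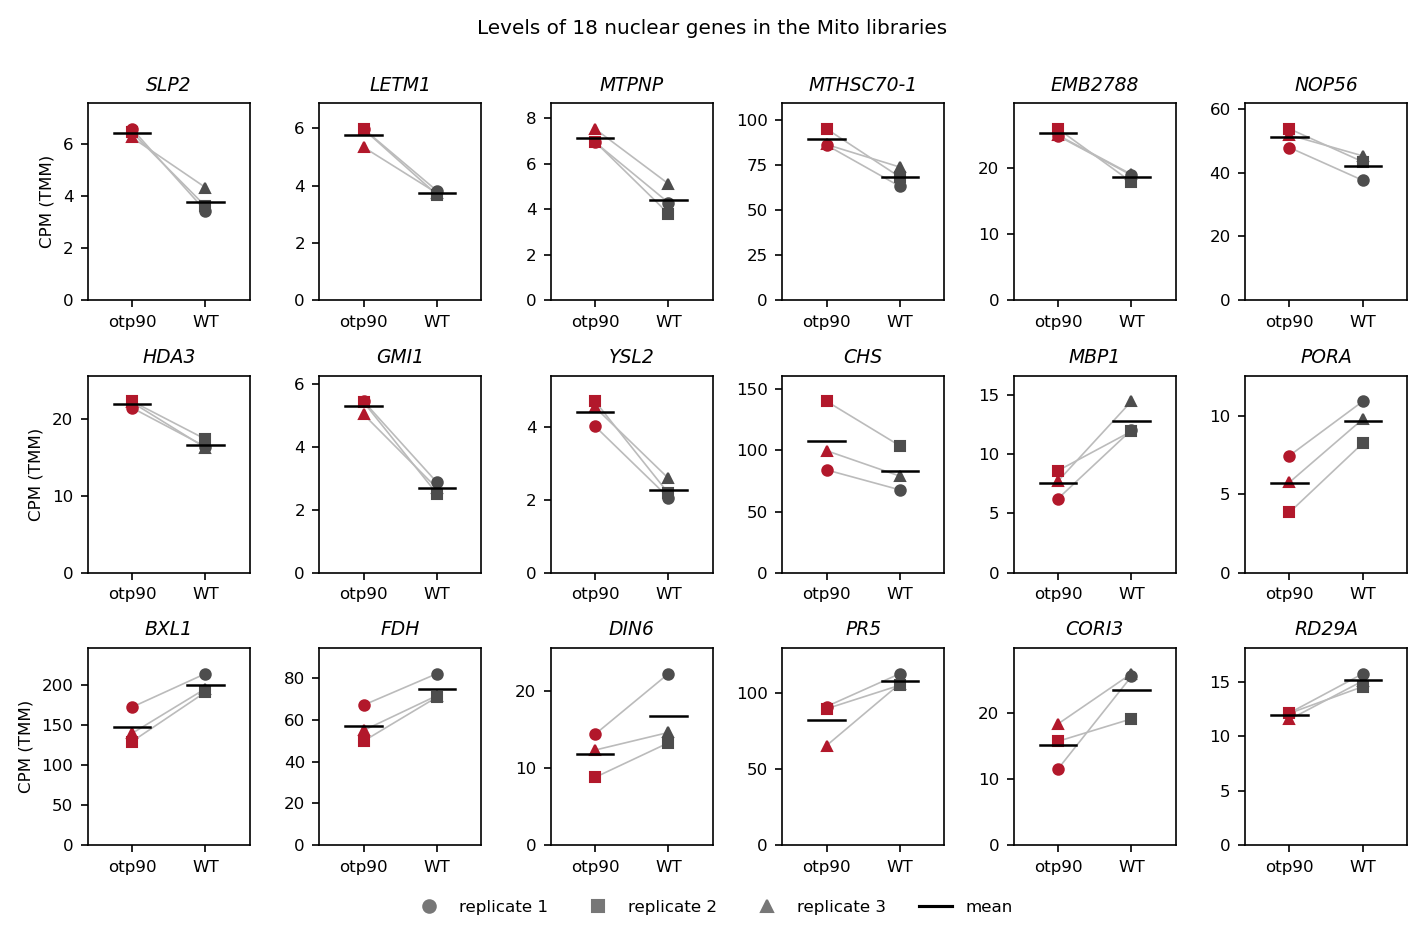
Level of 18 nuclear genes in each Mito library (vertical axis, CPM from 0), otp90 libraries to the left of WT libraries, with symbols for replicate numbers, grey lines joining same-numbered libraries and a bar at the mean. SLP2, at 6.26 to 6.59 CPM in otp90 and 3.44 to 4.34 CPM in WT, shows no overlap, whereas CHS and DIN6 overlap between the groups while each joined pair moves the same way.

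The mitochondrial chaperone and protease genes as a wider list changed little. Of 14 tested genes 2 rose and none fell, with a median log2 fold change of 0.13 (0.04 with library sizes alone). Both were matrix chaperones that fold imported proteins. MTHSC70-1 (AT4G37910, chromosome 4, 17824777 to 17828192) had 85.98, 94.96 and 86.30 CPM in otp90, against 63.1, 68.2 and 73.8 CPM in WT (log2 0.38 ± 0.07, SE; edgeR adjusted p = 0.0106). HSP60-2 had 18.5, 19.8 and 20.1 CPM in otp90, against 14.1, 15.9 and 15.8 CPM in WT (log2 0.35 ± 0.07, SE; edgeR adjusted p = 0.0184). In neither gene did the groups overlap, and both calls were lost without the replicate 2 libraries, MTHSC70-1 at an adjusted p of 0.108. Both calls were also lost with library sizes alone.

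Genes that respond to mitochondrial retrograde signals split. Of 20 listed genes 10 passed the filter on low counts, 2 rose and none fell, and 4 of the 10 were positive, with a median of -0.04. NAC013 (AT1G32870, chromosome 1, 11911631 to 11913947), one of the NAC factors of this response, had 8.31, 7.52 and 6.60 CPM in otp90 and 5.25, 4.85 and 5.85 CPM in WT (log2 0.50 ± 0.11, SE; edgeR adjusted p = 0.0457). AT2G41730, a gene of unknown role on the same list, was at log2 0.91 (adjusted p = 0.0471), with 1.39 to 1.68 CPM in otp90 and 0.706 to 0.938 CPM in WT. NAC013 lost its call without the replicate 1 libraries (adjusted p = 0.143) and without those of replicate 2 (0.295), and neither gene passed with library sizes alone. Some genes of this list and of the alternative respiration list were too weakly expressed for the filter. The alternative NADH dehydrogenase NDB4 had 48 counts over the otp90 libraries and 0 in WT, which is at least 17.1-fold higher against a floor of 3 counts over the group. AT12CYS-2, a small intermembrane-space protein, had 53 counts in otp90 and 2 in WT (ratio 28.3, exact 95% interval 7.47 to 240.1), and NDB3 had 14 and 3 (ratio 4.99, 1.39 to 27.1), and these intervals cover counting error only.

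Other low genes of the retrograde list passed when no filter was applied, where 95 of 25219 genes were called without the replicate number (0.377%) and 599 with it (2.38%). HSP23.5, a small heat shock protein of mitochondria, had 14, 18 and 12 counts in otp90 libraries, against 1, 5 and 0 in WT libraries (adjusted p = 0.0339 without the replicate number). DTX3, a MATE-type efflux carrier, had 21, 25 and 11 counts in otp90 and 3, 1 and 4 in WT (adjusted p = 0.0073). UGT74E2, a glucosyltransferase of the auxin indole-butyric acid, had 16, 14 and 10 counts in otp90 and 10, 0 and 2 in WT, and passed with the replicate number (adjusted p = 0.0413) but not without it (0.396).

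The mitochondrial dysfunction motif, searched on both strands of the 250 bases before the annotated gene start as CTTG and then, after 5 bases of any kind, CAAG or CACG, was found before 4 of the 59 higher genes that had a window (6.78%), 1 of 68 lower genes (1.47%) and 110 of 16035 tested genes (0.686%). A match is a description of letters and not a site of binding. AOX1A, called higher and known for this motif in its promoter, was not among the 4 higher genes. A gene without a match in this search may thus still carry the motif. The 4 higher genes were SLP2, LETM1, MTHSC70-1 and AT2G18193, and the stretches that hold the motif are shown because 3 of the 4 encode mitochondrial proteins. They were read 5′ to 3′ on the strand of the gene from the RefSeq TAIR10 sequence, with the motif in capitals, which in SLP2 reads in the reverse orientation. AT2G18193 encodes an ATPase-type protein and had 1.61, 1.66 and 1.93 CPM in otp90, against 0.563, 0.583 and 0.538 CPM in WT (log2 1.61, adjusted p = 0.00243 with the replicate number and 0.0223 without). Only its otp90 libraries passed the 1 CPM filter, so it could be counted among higher genes but not lower ones.
SLP2 (chr5:21956665-21956717, minus strand, motif 117 bases before the start): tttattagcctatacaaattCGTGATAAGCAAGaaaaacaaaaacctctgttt
LETM1 (chr3:22102338-22102390, minus strand, motif 146 bases before the start): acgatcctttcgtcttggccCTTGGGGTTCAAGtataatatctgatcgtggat
MTHSC70-1 (chr4:17828304-17828332, minus strand, motif 132 bases before the start): acataataCTTGTAGCCCACGaatatttt
AT2G18193 (chr2:7919403-7919455, minus strand, motif 90 bases before the start): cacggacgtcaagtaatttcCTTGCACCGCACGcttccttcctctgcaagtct

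Genes for ribosome assembly made up the next group. Of 28 tested genes for ribosome biogenesis and the nucleolus, again a list put together after the values were seen, 26 were positive and 11 rose, with none lower and a median log2 fold change of 0.27 (0.18 with library sizes alone). The medians were 0.29, 0.31 and 0.20 in the pairs of replicate 1, 2 and 3. All 11 calls were lost without the replicate 2 libraries, and none passed without the replicate number or with library sizes alone. EMB2788 (AT4G27010, chromosome 4, 13557974 to 13568439), a large-subunit assembly factor, had 24.93, 26.00 and 25.04 CPM in otp90 and 19.0, 17.9 and 19.1 CPM in WT. The otp90 libraries all lay above the WT libraries (log2 0.44 ± 0.07, SE; edgeR adjusted p = 0.00397). NOP56 (AT1G56110, chromosome 1, 20984273 to 20986952), a core protein of the box C/D particles that guide ribosomal RNA methylation, had 47.8, 53.7 and 51.7 CPM in otp90 and 37.5, 43.3 and 45.2 CPM in WT (log2 0.28 ± 0.06, SE; adjusted p = 0.0339).

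Further members of the list rose too. FIB2, a fibrillarin that methylates ribosomal RNA, stood at log2 0.47, with 14.46, 17.42 and 14.03 CPM in otp90 and 9.319, 11.04 and 13.15 CPM in WT. HDA3, a nucleolar histone deacetylase, was at 0.40, with 21.43 to 22.29 CPM in otp90 and 16.24 to 17.36 CPM in WT. PES (AT5G14520, chromosome 5, 4680540 to 4684472), the pescadillo protein of large-subunit maturation, was at 0.26, with 33.8 to 37.4 CPM in otp90 and 28.1 to 31.4 CPM in WT. The helicases RH29 (0.33) and RH51 (0.36) and the nucleolar GTPase NSN1 (0.31) rose as well. Cytosolic ribosomal proteins, which these factors assemble, leaned the same way without a call: 124 of 144 were positive, with a median of 0.10 that was 0.01 with library sizes alone, and 32 had an unadjusted p under 0.05 on the higher side and 1 on the lower.

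Promoters of nucleolar and ribosomal genes are known for site II elements (TGGGCC or TGGGCT) and telo boxes (AAACCCTA). Within 250 bases before the start, on either strand, a site II element was found in 6 of the 11 called genes of the list (54.5%), in 17 of its 28 tested genes (60.7%) and in 3855 of all 16035 tested genes with a window, and a telo box in 2 of the 11, 5 of the 28 (17.9%) and 576 of the 16035 (3.59%). NOP56, which carries both, and PES are shown with the elements in capitals (GGCCCA and AGCCCA are site II elements in the reverse orientation), on the minus strand of the RefSeq TAIR10 sequence read 5′ to 3′ and ending at the base before the start.
NOP56 (chr1:20986953-20987082): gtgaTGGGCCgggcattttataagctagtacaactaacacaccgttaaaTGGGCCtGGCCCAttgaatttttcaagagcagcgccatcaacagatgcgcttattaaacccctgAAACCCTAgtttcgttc
PES (chr5:4684473-4684532): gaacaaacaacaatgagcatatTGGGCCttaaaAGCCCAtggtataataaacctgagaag

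**Figure D3:**
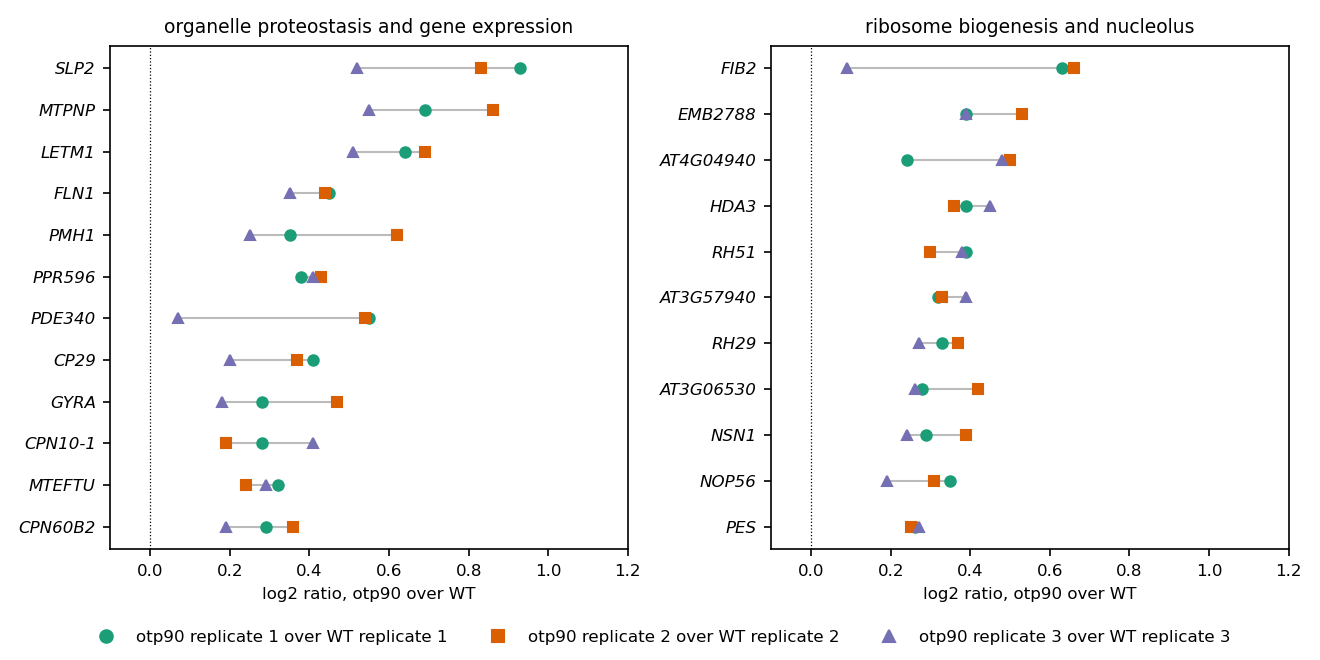
Log2 ratio of otp90 over WT (horizontal axis) in each same-numbered pair of Mito libraries, with 1 symbol per pair, for the 12 called genes of the organelle list (left) and the 11 of the ribosome assembly list (right). All pairs lie above 0, which the fit that chose these genes favours, and SLP2, MTPNP and LETM1 have the largest ratios on the left.

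Some single genes rose more than any group. GMI1 (AT5G24280, chromosome 5, 8251220 to 8262603), known for induction by DNA breaks and a part in their repair, had 5.46, 5.43 and 5.04 CPM in otp90, against 2.88, 2.52 and 2.69 CPM in WT. It passed with the replicate number (log2 0.98 ± 0.12, SE; edgeR adjusted p = 0.00135) and without it (0.0223), and was the only call among 15 tested DNA damage response genes, whose median was 0.11. YSL2 (AT5G24380), a transporter of metals bound to nicotianamine whose start lies 73 kb from that of GMI1, had 4.02, 4.70 and 4.54 CPM in otp90 and 2.06, 2.18 and 2.59 CPM in WT (log2 0.96 ± 0.13, SE; adjusted p = 0.00243). The iron homeostasis list had no call among 13 tested genes, and its lowest p belonged to NAS4, a nicotianamine synthase (log2 0.40, adjusted p = 0.0513). DR4, a drought-repressed gene, had 5.87, 7.22 and 6.89 CPM in otp90 and 3.44, 3.65 and 3.09 CPM in WT (log2 0.97). AT1G22550, a transporter of the major facilitator superfamily, had 6.80, 7.42 and 7.39 CPM in otp90 and 4.28, 3.40 and 3.77 CPM in WT (log2 0.92). AT5G52940, a protein with a domain of unknown function, showed the widest gap of these, with 1.89, 1.39 and 1.89 CPM in otp90 and 0.313, 0.276 and 0.202 CPM in WT (log2 2.67). Only the otp90 libraries of AT5G52940 passed the 1 CPM filter, so that it was tested only because it is high in otp90. DR4, AT1G22550 and AT5G52940 each passed with and without the replicate number.

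Chalcone synthase, CHS (AT5G13930), which commits carbon to flavonoids, had 84.0, 140 and 99.7 CPM in otp90 and 67.7, 104 and 78.9 CPM in WT. The groups overlapped, since replicate 2 was highest in both, and CHS was higher in otp90 in all 3 pairs (log2 0.36 ± 0.06, SE; edgeR adjusted p = 0.0102, and 0.106 without the replicate 2 libraries). With library sizes alone CHS did not pass (edgeR adjusted p = 0.101). It was the 1 call among 10 tested genes of flavonoid and anthocyanin synthesis, all 10 of which were positive, with a median of 0.33 (0.24 with library sizes alone) and medians of 0.17, 0.60 and 0.31 by pair.

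A root marker and 3 other genes, which were picked after the values were seen, rose as well. PYK10, a root endoplasmic-reticulum-body glucosidase, had 42.9, 47.0 and 47.9 CPM in otp90 and 39.1, 30.4 and 28.6 CPM in WT (log2 0.50 ± 0.09, SE; edgeR adjusted p = 0.0152, and 0.117 without the replicate 2 libraries). With library sizes alone PYK10 did not pass (edgeR adjusted p = 0.073). The partner of PYK10, the PYK10-binding lectin AT3G16420, was at log2 0.32, the related lectin JAL22 at 0.51 and the laccase LAC3 at 1.61. Only the otp90 libraries of LAC3 passed the 1 CPM filter, so it was tested only because it is high in otp90. The 5 root markers summed to 48.0 to 53.4 CPM in otp90 and 34.1 to 43.3 CPM in WT, of which most was PYK10, while the root-defining WOX5, COBL9 and CASP1 were at or near 0. Flower markers summed to 1.03 to 1.22 CPM in otp90 and 2.09 to 2.48 CPM in WT, with none past the filter. The part of other organs or cell types in these results was not tested.

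The lower calls included members of the carbon starvation, jasmonate, salicylic acid and abscisic acid lists, none of which passed without the replicate number. Among all nuclear genes outside copies 48.0% were positive. BXL1 (AT5G49360, chromosome 5, 20011812 to 20016857) was on none of these lists and was named for its small p. This cell-wall xylosidase, known to be induced by sugar starvation, had 172, 129 and 140 CPM in otp90 and 214, 191 and 195 CPM in WT, with no overlap (log2 -0.45 ± 0.07, SE; edgeR adjusted p = 0.0053, and 0.0633 without the replicate 2 libraries).

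Of 11 tested carbon starvation genes 2 fell and none rose, 10 were negative, and the median log2 fold change was -0.23 (-0.32 with library sizes alone), at -0.24, -0.22 and -0.24 in the 3 pairs. DIN6 (AT3G47340, chromosome 3, 17437840 to 17441431), a dark-induced asparagine synthetase, had 14.3, 8.78 and 12.3 CPM in otp90 and 22.2, 13.2 and 14.6 CPM in WT. Replicate 1 was highest and replicate 2 lowest in both genotypes, so that the groups overlapped while each pair was lower in otp90 (log2 -0.50 ± 0.09, SE; edgeR adjusted p = 0.00926, and 0.0874 without the replicate 2 libraries). SEN1, a senescence-associated gene, had 3.98, 1.79 and 3.53 CPM in otp90 and 7.22, 3.74 and 4.27 CPM in WT (log2 -0.73). Outside the list and picked after the values were seen, the sugar transporter STP1 (-0.32), the dormancy-associated AT2G33830 (-0.68) and AT1G56220 (-0.31) and the senescence factor NAP (-0.43) fell too.

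Jasmonate genes showed 3 lower and 0 higher of 16 tested, with a median of -0.15. CORI3, a coronatine-induced cystine lyase, had 11.6, 15.8 and 18.4 CPM in otp90 and 25.6, 19.2 and 26.0 CPM in WT (log2 -0.64 ± 0.12, SE; edgeR adjusted p = 0.0152). The vegetative storage protein VSP1 was at log2 -0.87, with 1.202, 2.153 and 2.521 CPM in otp90 and 3.346, 3.497 and 3.699 CPM in WT, and the signalling repressor JAZ1 at -0.35 with overlapping groups. Both VSP1 and JAZ1 lost their call without the replicate 2 libraries, whereas CORI3 kept it. TPS04, the geranyllinalool synthase of jasmonate-induced volatiles, had 2.438, 1.689 and 2.311 CPM in otp90 and 5.004, 2.761 and 4.035 CPM in WT (log2 -0.87).

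All 22 tested salicylic acid genes were negative, with a median of -0.14 (-0.23 with library sizes alone), and 1 fell. That gene was PR5 (AT1G75040), a thaumatin-like defence protein, with 91.3, 89.8 and 65.5 CPM in otp90 and 113, 105 and 106 CPM in WT (log2 -0.41 ± 0.08, SE; edgeR adjusted p = 0.0242, and 0.0738 without the replicate 3 libraries). The shift was largest in the replicate 3 pair, where the median of the list was -0.45, against -0.05 and -0.14 in the others. UGT74F2, which glucosylates salicylic acid, was at -0.44, the RNA polymerase RDR1 of antiviral silencing at -0.33 and the vacuolar calcium exchanger CAX3 at -0.38. Among 13 abscisic acid and cold or drought genes 11 were negative and RD29A fell, with 12.2, 12.1 and 11.6 CPM in otp90 and 15.8, 14.6 and 15.1 CPM in WT (log2 -0.34, adjusted p = 0.0365, lost without any 1 of the 3 replicate pairs).

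The 12 lower genes with the smallest p outside the copper list reached further. PORA (AT5G54190, chromosome 5, 21990864 to 21992814), a protochlorophyllide oxidoreductase of greening seedlings, had 7.45, 3.84 and 5.76 CPM in otp90 and 10.9, 8.25 and 9.79 CPM in WT (log2 -0.78 ± 0.11, SE; edgeR adjusted p = 0.00261). MBP1, a myrosinase-binding lectin, had 6.25, 8.61 and 7.73 CPM in otp90 and 12.0, 11.9 and 14.5 CPM in WT (log2 -0.76). FDH, the formate dehydrogenase of mitochondria, had 67.1, 49.9 and 55.0 CPM in otp90 and 82.2, 71.0 and 71.7 CPM in WT (log2 -0.39 ± 0.06, SE; adjusted p = 0.00689, and 0.104 without the replicate 2 libraries). In all 3 genes every otp90 library lay under every WT library. The gibberellin-regulated GASA1 was at -0.48, the glycine-rich protein AT2G05540 at -1.08 and the xylose isomerase AT5G57655 at -0.35. AT1G77960, annotated as a repressor ROX1-like protein, was at -1.37, the noncoding RNA AT4G06115 at -1.06 and the uncharacterised AT2G34655 at -0.55, and the peroxidase AT2G37130 was at -0.54. The light-signalling factors HFR1 (-0.51) and HB-2 (-0.39), named after their values were seen, fell as well.

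**Figure D4:**
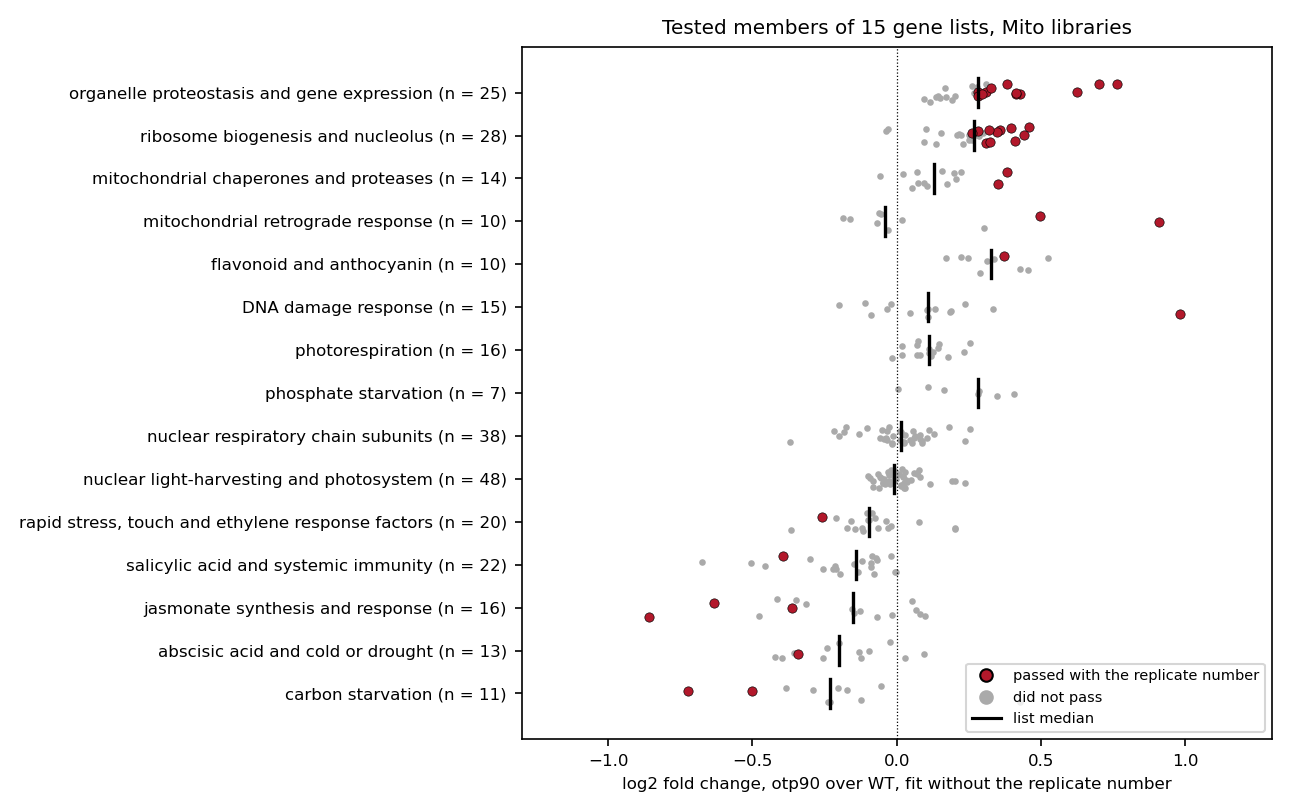
Log2 fold change without the replicate number (horizontal axis), otp90 over WT in Mito libraries, of the tested members of 15 gene lists, with genes that passed with the replicate number in red and the list median as a bar. The organelle and ribosome assembly lists have medians of 0.28 and 0.27, and the carbon starvation list one of -0.23.

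The remaining lists are given by their counts. Of the 55 lists described, 53 had a tested member and 21 had a call with the replicate number, while 2 had one without it. The 21 include the organelle and ribosome assembly lists, which were put together after the values were seen. Some of the 21 share a called gene (TCH4, PR5 or NAC013). No call was made among 38 nuclear subunits of the respiratory chain (median 0.01), 48 nuclear photosystem and light-harvesting genes (median -0.01), 172 PPR genes (131 positive, median 0.08, and -0.00 with library sizes alone) or 16 photorespiration genes (15 positive, median 0.11). Circadian clock, glucosinolate, antioxidant, nitrate, sulphur and WRKY genes also gave none. Endoplasmic reticulum stress genes, of which 9 were tested, were all negative with a median of -0.13 and no call, and 7 phosphate starvation genes were all positive with a median of 0.28 and no call. Among gene families read from symbols, 345 had 5 or more tested genes and none of them had 3 calls.

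The Total libraries of the same genotypes were set beside these values to see whether the called genes moved there too. Total values are from a fit without the replicate number, as are the list medians of both preparations. The calls and single-gene values in Mito are from the fit with it, so the 2 preparations were not tested alike. Of the 61 genes higher in Mito 49 were tested in Total, where 22 had the same sign and the median was -0.04, and of the 71 lower genes 61 were tested there, where 30 had the same sign and the median was 0.00. SLP2 was at log2 0.77 in Mito and 0.00 in Total, CHS at 0.36 and -0.43, BXL1 at -0.45 and 0.50, and PR5 at -0.41 and -2.12, each with an edgeR adjusted p of 1 in Total. In the Mito fit without the replicate number these genes did not pass either. Their edgeR adjusted p there was 0.0551 for SLP2, 0.747 for CHS, 0.25 for BXL1 and 0.433 for PR5. The organelle list had a median of 0.28 in Mito and -0.13 in Total and the ribosome assembly list one of 0.27 and -0.11, but both were put together from Mito values. Of the other lists, medians in Mito and Total were 0.10 and -0.26 for cytosolic ribosomal proteins, -0.23 and 0.09 for carbon starvation, -0.15 and 0.21 for jasmonate, -0.14 and -0.36 for salicylic acid, -0.13 and -0.49 for endoplasmic reticulum stress and 0.28 and 0.16 for phosphate starvation. GMI1 (0.98 and 0.71), YSL2 (0.96 and 1.36) and AT1G22550 (0.92 and 0.99) were positive in both. The interaction of genotype and preparation called 0 of 16825 genes in edgeR, with 853 at an unadjusted p under 0.05. Among the 61 higher and 71 lower genes, which were chosen on the Mito values that enter it, 15 and 15 had an unadjusted p under 0.05, and the smallest adjusted p was 0.93.

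**Figure D5:**
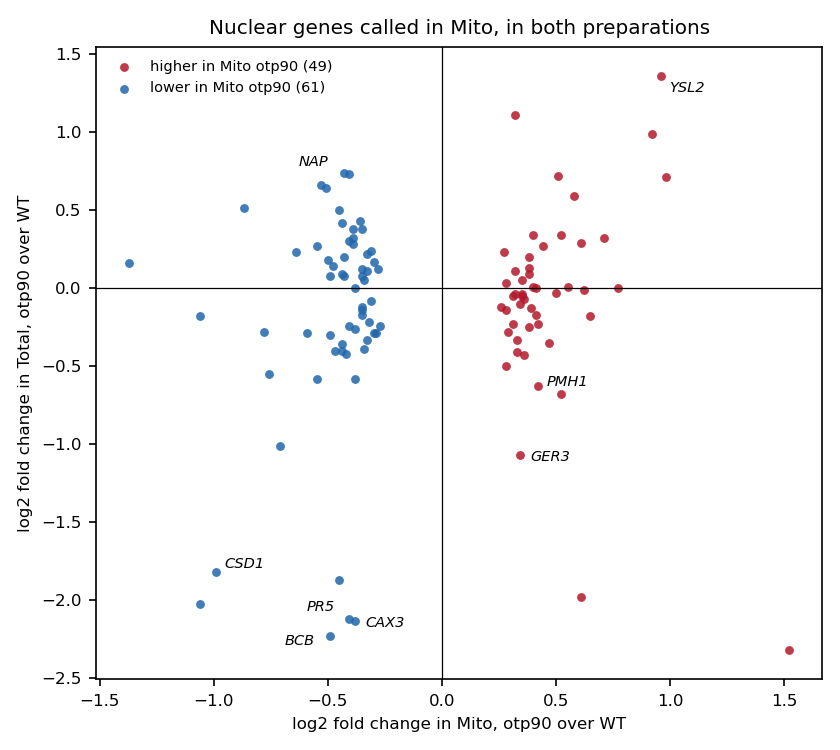
Log2 fold change of otp90 over WT in Total libraries (vertical axis) against Mito libraries (horizontal axis), with each point 1 of the called nuclear genes that were also tested in Total, 49 higher (red) and 61 lower (blue) in Mito otp90. Of these 22 and 30 share their sign between the preparations, and YSL2 lies above 0 on both axes. Mito values are from the fit with the replicate number and Total values from a fit without it.

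Gene structure and promoter letters of the called nuclear genes were counted. The higher genes were longer than tested genes at large, with a median summed exon length of 2106 bases and 7 exons, against 1867 bases and 5 exons, and the lower genes were shorter, with 1660 bases and 4 exons. Levels, on which the power of the test depends, had a median average log2 CPM of 3.89 and 3.84, against 3.11. With tested genes binned by exon length the median log2 fold change was -0.02 in the bin of genes up to 1253 bases and 0.01 in the bin above 2706 bases. Site II elements stood in 17 of 59 higher (28.8%) and 5 of 68 lower promoters (7.35%), against 3855 of all 16035, while the G-box CACGTG was about as frequent in both (6.78% and 7.35%, against 7.48%). Its letters CACG also end 1 form of the mitochondrial dysfunction motif. Calls were spread over the 5 chromosomes at 0.671% to 0.923% of tested genes, and none of the 168 genes tested within 500 kb of OTP90 was called. AT1G07017, another noncoding RNA among the higher calls, had 1.099, 2.352 and 10.21 CPM in otp90 and 0.719, 0.276 and 3.90 CPM in WT (log2 1.52), with overlapping groups. For AT3G06355 (log2 0.61) the counts may not be its own, since it overlaps ribosomal RNA genes, and its groups overlapped, with 76.8, 75.7 and 132 CPM in otp90 and 51.6, 39.5 and 104 CPM in WT.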

How the data were processed

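The authors deposited raw counts of reads for each gene, in 1 table per library. Per the file headers the authors used featureCounts 1.6.3 over exons with strand setting 2 and multi-mapping reads counted, after alignment with STAR to the genome of Ensembl Genomes release 39. By the study's methods the aligner opened no introns, so reads across exon junctions could be missed. Reads from near-identical copies were thus counted in each copy, while antisense genes were kept apart by strand.

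Counts were tested with edgeR 4.0.16 in R 4.3.3 (TMM factors of the 6 Mito libraries, glmQLFit, glmQLFTest), on genes above 1 CPM in 3 or more libraries, with Benjamini-Hochberg adjustment at 0.05. Library totals of 24660745 to 32418348 counts put the floor of 3 counts at 0.0925 to 0.122 CPM, and floors and intervals cover counting error only. Standard errors were back-calculated from the F statistic and are tied to the p-values. The design held a fit without a block and, for use where the numbers pair libraries, one with the replicate number. The labels give shared replicate numbers, and departures from the group mean correlated between the libraries of every same-numbered pair (0.413, 0.401 and 0.102, against -0.44 to 0.034 for other pairings). The design asked for a correlation over 0.1 in every same-numbered pair, which replicate 3 passed narrowly. Departures sum to 0 within a group, so the values of other pairings are not independent of these. The fit with the replicate number was therefore set beside the fit without a block. Replicate libraries differed by more than sampling noise (chi-square per degree of freedom 13.01 to 39.85). Genome shares of counts were tested by exact two-sided permutation over libraries.

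A nuclear gene was called an organelle copy when at least 50% of its exons matched an organelle genome at 95% identity or more. Gene names, promoters and coordinates are from the RefSeq annotation of TAIR10. Members and gene lists were chosen with earlier results of these data known, and the organelle and ribosome assembly lists after the values were seen. Lists are described by counts and medians. Genes were named from OTP90, calls made without the replicate number, the 12 higher and 12 lower nuclear calls of smallest p with it, and up to 4 calls per list, or with no call the member of smallest p. Not all genes that this takes are named. Other names were chosen after their values were seen. The fits were run on simulated counts in which a replicate effect shared by both genotypes was built in. That run therefore cannot check whether the replicate numbers pair libraries in these data. DESeq2 1.42.0, other scalings and filters and left-out libraries were alternatives.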

Additional observations from a re-analysis of the deposited data

How the results depend on the processing

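The count of 10 genes without the replicate number became 22 with RLE factors, 19 with nuclear genes only, 95 with no filter, 29 with filterByExpr, 105 in DESeq2, 1 with all 12 libraries in 1 fit and 221 with the replicate number as a block, and 2 to 64 with 1 library left out, where 64 came without Mito WT replicate 3. The count of 221 with the replicate block became 10 with no block, 137 with library sizes alone, 599 with no filter, 95 in DESeq2, 520 in the likelihood ratio test and 99 to 326 with 1 replicate pair left out. The 61 higher nuclear genes outside copies became 6 with no block, 13 with library sizes alone, 94 with nuclear genes only, 170 with no filter, 18 in DESeq2, 151 in the likelihood ratio test, 92 with genes outside copies only (a fit chosen after seeing the data) and 18 to 105 with 1 pair left out. The 71 lower genes became 3 with no block, 114 with nuclear genes only, 274 with no filter, 116 with filterByExpr, 15 in DESeq2, 231 in the likelihood ratio test and 30 to 145 with 1 pair left out. The cause of these moves was not tested. The interaction had 0 calls under every alternative run. The plastid share differed by 0.44 percentage points, and with 1 library left out by -1.45 to 1.62, below 0 without Mito WT replicate 3 (-1.45) and without Mito otp90 replicate 1 (-0.41). No named gene changed sign under the alternatives of a fit that called it. Changes under about 0.26 on the log2 scale were not called at this depth, and genes under 1 CPM rest on few counts.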
